A study of Mus musculus with 28 samples.

Results

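Aggrecan, the matrilins and the other noncollagenous components of cartilage matrix were followed in skeletal stem and progenitor cells of control mice and of mice with Zmpste24 (Z24) deleted in the limb mesenchyme. The members were 9 genes listed by symbol for their part in cartilage matrix: Acan, Hapln1, Matn1, Matn3, Matn4, Comp, Cnmd, Snorc and Chad, of 53801 genes in the bulk RNA tables. Of the 28 samples, 12 were bulk RNA libraries, 12 were ATAC libraries and 4 were single-cell RNA libraries. The bulk samples came from 20-week-old mice and covered 2 sorted populations, each with 3 control and 3 Z24-deleted (CKO) libraries for RNA and the same for ATAC. Growth plate cells (gpSSPCs) were sorted as Prx1-Ai9+ CD73+ and periosteal cells (pSSPCs) as Prx1-Ai9+ Sca1+, both negative for CD45, Ter119 and CD31. Every bulk group carried the Prx1-Cre driver and the tdTomato reporter, so cells outside the Prx1 limb lineage were not sorted for. The genotype field reads PrxCre; Z24fl/fl for control and CKO bulk samples alike, and the sample titles alone tell them apart. The single-cell libraries held tdTomato+ cells of bone and marrow: an OsxCre and a PrxCre library at 8 weeks, and at 16 weeks a control library (PrxCre; Z24fl/+) and a CKO library (PrxCre; Z24fl/fl), each pooled from several mice. Both 8-week libraries are entered as Z24fl/fl, whereas the study's text describes reporter mice of each Cre line without a floxed Z24 allele, so whether their cells lacked Z24 is not settled here. The labels do not say that replicates were separate mice, so the tests below measure the spread between libraries, which may be technical.

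Cartilage matrix is a collagen network filled with proteoglycan. Aggrecan, the product of Acan, carries chondroitin sulfate chains and is held on hyaluronan by the link protein that Hapln1 encodes. Matrilins and cartilage oligomeric matrix protein (Comp) connect collagen fibrils with proteoglycans, chondromodulin (Cnmd) is known as an inhibitor of vessel growth, Snorc is a small transmembrane proteoglycan of chondrocytes, and chondroadherin (Chad) is a leucine-rich protein that binds cells and collagen. In the growth plate these genes mark resting, proliferating and prehypertrophic chondrocytes to different degrees, with Matn1 and Matn3 typical of the proliferating zone.

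The ATAC libraries separated the members by their promoters, and the 250 bases before the RefSeq start (GRCm38.p6) are therefore shown for 5 of them. The window of Matn3 was open in all 12 libraries and that of Acan in all 6 gpSSPC libraries and 1 CKO pSSPC library. That of Chad was open in all 6 gpSSPC libraries alone. A wider merged region around it (chr11:94562644-94565272) had peaks in all 12 libraries, but those of pSSPCs did not reach the window. The Cnmd window was open in 3 control and 1 CKO gpSSPC library, and that of Matn1 in no library. Capitals mark matches on either strand to GGGCGG, the core of an Sp1 site (CCGCCC on the other strand), and to TATAAA, the TATA box.
Matn3, chr12:8947679-8947928, + strand: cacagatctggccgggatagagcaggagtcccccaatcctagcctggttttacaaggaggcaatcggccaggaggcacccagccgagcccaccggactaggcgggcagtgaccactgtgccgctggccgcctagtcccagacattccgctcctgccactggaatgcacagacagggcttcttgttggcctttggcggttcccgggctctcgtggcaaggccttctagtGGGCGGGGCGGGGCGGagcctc
Acan, chr7:79052976-79053225, + strand: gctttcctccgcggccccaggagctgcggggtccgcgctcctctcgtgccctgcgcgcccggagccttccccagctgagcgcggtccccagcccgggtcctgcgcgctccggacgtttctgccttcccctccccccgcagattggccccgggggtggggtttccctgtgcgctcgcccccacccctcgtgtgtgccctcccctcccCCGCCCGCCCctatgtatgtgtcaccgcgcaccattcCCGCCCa
Chad, chr11:94564797-94565046, + strand: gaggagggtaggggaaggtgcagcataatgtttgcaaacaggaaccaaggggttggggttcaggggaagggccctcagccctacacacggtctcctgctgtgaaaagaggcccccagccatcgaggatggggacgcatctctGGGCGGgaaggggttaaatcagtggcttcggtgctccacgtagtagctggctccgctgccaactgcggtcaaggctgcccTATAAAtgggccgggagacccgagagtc
Cnmd, chr14:79662184-79662433, - strand: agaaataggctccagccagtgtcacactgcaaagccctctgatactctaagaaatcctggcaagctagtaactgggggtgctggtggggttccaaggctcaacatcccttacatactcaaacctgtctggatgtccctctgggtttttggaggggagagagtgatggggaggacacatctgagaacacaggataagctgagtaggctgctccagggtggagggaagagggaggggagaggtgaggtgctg
Matn1, chr4:130944135-130944384, + strand: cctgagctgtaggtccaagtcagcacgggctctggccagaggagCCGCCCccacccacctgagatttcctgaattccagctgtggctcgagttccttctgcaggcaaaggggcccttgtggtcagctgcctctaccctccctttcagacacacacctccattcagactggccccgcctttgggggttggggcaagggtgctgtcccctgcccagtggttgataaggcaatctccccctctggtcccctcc
RefSeq promoters were matched for 7 of the 9 members. GGGCGG occurred in 5 of these 7 (Acan, Matn1, Matn3, Matn4 and Chad) and in 32.7% of 32851 promoters of the same length. The 3 matches of Matn3 overlap each other by a base, and 2 of the 3 matches of Acan also overlap. TATAAA was found in Chad alone, and in 12.4% of all promoters. The letters ACAATG and ACAAAG, both bound by SOX proteins, were in none of the 7 and in 10.7% and 16.5% of all promoters. These counts describe letters in a short window and say nothing of whether a factor binds.

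Bulk RNA libraries of 1000 cells held between 1333260 and 5315709 counts. Within each of the 4 groups, replicates 2 and 3 agreed within sampling noise over low-count genes, where the chi-square statistic divided by its degrees of freedom was 0.805 to 0.972 for this pair and 10.2 to 14.2 for replicate 1 against either of them. Over high-count genes it was 1.59 to 1.92 for the pair, above sampling noise, and 53.2 to 71.4 for replicate 1. The pair was therefore counted as 1 sample, which left 2 samples per group. Same-numbered control and CKO libraries deviated together, so a fit with the replicate as a block is given beside the plain fit. Levels are given as CPM, counts scaled to a common library total by the trimmed mean of M values (TMM). Replicate 1 of control gpSSPCs also differed from replicates 2 and 3 in abundant genes, among them 2 markers: Ibsp, a bone matrix gene, was at 48014, 8035 and 9532 CPM, and Prg4, the joint lubricant, at 1227, 16971 and 19216 CPM. The rest of their lists lay close, with the other 6 osteoblast markers at a sum of 11830, 12204 and 13124 CPM and the other 8 periosteal markers at 8886, 10009 and 10017 CPM. Cytl1, a secreted chondrocyte factor outside these lists, was at 3372, 22910 and 23941 CPM. In every other group too, replicate 1 was higher in Ibsp and lower in Prg4 than replicates 2 and 3. In CKO gpSSPCs Ibsp was at 37989, 7288 and 8796 CPM and Prg4 at 1489, 22058 and 25879 CPM. The part of these genes in the differences between replicates was not tested. Counts of Zmpste24 itself were 11, 48 and 80 in the control gpSSPC libraries and 2, 21 and 29 in the CKO ones. In pSSPCs they were 1, 51 and 84 against 0, 28 and 41, lower in CKO within each replicate number.

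In gpSSPCs, 4 of the 9 members were lower in all 3 CKO libraries than in all 3 control libraries: Acan, Hapln1, Matn1 and Matn3. Comp, Cnmd, Snorc, Matn4 and Chad overlapped. Of 12041 genes tested, 8.24% were lower in all 3 CKO libraries and 6.49% higher in all 3, and no member was higher in all 3. Matn3 was the 1 member that fell by an adjusted p, in the fit with the replicate block.

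Matn3, an adaptor matrilin of growth plate cartilage (chromosome 12, 8947929 to 8972028, + strand), measured 1478, 730 and 724 CPM in control gpSSPC replicates 1, 2 and 3 and 625, 321 and 329 CPM in the CKO replicates. The highest CKO library lay below the lowest control library, and replicate 1 was the highest library in both groups. The log2 fold change was -1.20 with a standard error (SE) of 0.57 (n = 2 per group), and edgeR's quasi-likelihood test with Benjamini-Hochberg adjustment gave an adjusted p of 1. It was -0.60 without control replicate 1, -1.75 without CKO replicate 1 and -1.15 without both. With the replicate block the log2 fold change was -1.19 and the edgeR adjusted p was 0.00565. With 2 samples per group and a block, few residual degrees of freedom remain, so this p leans on variance shared across genes. In that fit 0.0581% of the 12041 genes were called lower and 0.0415% higher. The ratio of Matn3 to the other growth plate gene Cnmd, which needs no scaling between libraries, was 19.8, 17.2 and 15.6 Matn3 counts per 100 Cnmd counts in control gpSSPCs and 9.0, 8.12 and 7.88 in CKO gpSSPCs. By the same ratio Acan was at 40.0, 117.6 and 86.6 in control and 40.1, 72.4 and 64.3 in CKO gpSSPCs, which overlap. Hapln1 (14.25, 36.2 and 33.65 against 8.61, 24.9 and 23.7) and Matn1 (0.32, 1.225 and 1.11 against 0.21, 0.44 and 0.40) also overlapped. Both were lower in CKO within each replicate number.

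Hapln1 (chromosome 13, 89539796 to 89611652, + strand) was at 1062, 1540 and 1558 CPM in control and 598, 985 and 991 CPM in CKO gpSSPCs. All CKO values lay below all control values, by a narrow margin between CKO replicates 2 and 3 and control replicate 1. Its log2 fold change was -0.71 (SE 0.50, n = 2 per group; edgeR adjusted p = 1), and the edgeR adjusted p with the block was 0.359. Matn1 (chromosome 4, 130944385 to 130955475, + strand), the matrilin typical of nonarticular cartilage, was measured at a low level, with 24, 52.2 and 51.5 CPM in control and 14.8, 17.4 and 16.7 CPM in CKO gpSSPCs. Its log2 fold change of -1.24 (SE 0.69, n = 2 per group) rested on 56, 166 and 254 control counts and 26, 44 and 63 CKO counts and did not pass (edgeR adjusted p = 1 with and without the block).

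Acan itself (chromosome 7, 79053483 to 79115099, + strand) was at 2983, 5005 and 4008 CPM in control gpSSPCs and at 2787, 2865 and 2686 CPM in CKO gpSSPCs. The CKO values were close together, while the control values spread widely, and replicate 1 of the control lay just above the CKO libraries. The log2 fold change was -0.40 (SE 0.48, n = 2 per group; edgeR adjusted p = 1), smaller than its error. Control replicates 2 and 3 differed for Acan (15926 of 3196895 and 19774 of 5035209 counts).

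The members that were not lower included 3 with nearly equal means. Comp (chromosome 8, 70373558 to 70382066, + strand) was at 3087, 4080 and 4141 CPM in control and 3303, 3860 and 4003 CPM in CKO gpSSPCs, with a log2 fold change of 0.02 (SE 0.48). Snorc (chromosome 1, 87470271 to 87475482, + strand) was at 6664, 8857 and 9704 CPM in control and 6746, 8107 and 8951 CPM in CKO gpSSPCs, with a log2 fold change of -0.05 (SE 0.50). Cnmd (chromosome 14, 79637690 to 79662170, - strand) was at 7455, 4258 and 4628 CPM in control and 6948, 3956 and 4176 CPM in CKO gpSSPCs, with a log2 fold change of -0.10 (SE 0.55). For these genes the 2 groups interleaved and replicate 1 stood apart in both, although Cnmd was lower in the CKO library within each replicate number. None passed the edgeR test, and the SEs leave changes of the size seen for Hapln1 possible for each.

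Chad (chromosome 11, 94565047 to 94569127, + strand) went the other way in sign. It was at 14154, 10808 and 10887 CPM in control gpSSPCs and at 25651, 12011 and 12151 CPM in CKO gpSSPCs. CKO replicate 1 held by far the highest value, and the other CKO libraries lay between the control libraries. Within each replicate number the CKO library was the higher one, with replicates 2 and 3 counted as 1 sample. CKO replicate 1 also held more RNA of the 6 osteoblast markers other than Ibsp. They summed to 20466 CPM there and to 9573 to 13124 CPM in the other 5 gpSSPC libraries. Ibsp itself was at 37989 CPM in CKO and 48014 CPM in control replicate 1, and all 7 markers summed to 58455 and 59844 CPM. The part of these markers in the Chad value was not tested. The log2 fold change of 0.61 (SE 0.58; edgeR adjusted p = 1, and 1 with the block) became -0.036 without CKO replicate 1, which leaves control replicate 1 unpaired, and 0.16 without replicate 1 of both groups. Chad lies within Acsf2 on the opposite strand and shares no exonic base with it, and Acsf2 was at 100.5 CPM in that library against 14.8 to 28.7 CPM in the other gpSSPC libraries. The strand setting of the counting is not given in the sources used here. Reads in exonic bases that such a pair shares can therefore not be told apart. Matn4 (chromosome 2, 164389393 to 164405160, - strand), the most widely expressed matrilin of the members, was low, with 18, 37.4 and 36.5 CPM in control and 12.6, 40.0 and 39.1 CPM in CKO gpSSPCs (log2 fold change -0.06, SE 0.78). It shares 149 exonic bases with Rbpjl on the opposite strand, and Rbpjl had 0 to 13 counts per library.

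**Figure D1:**
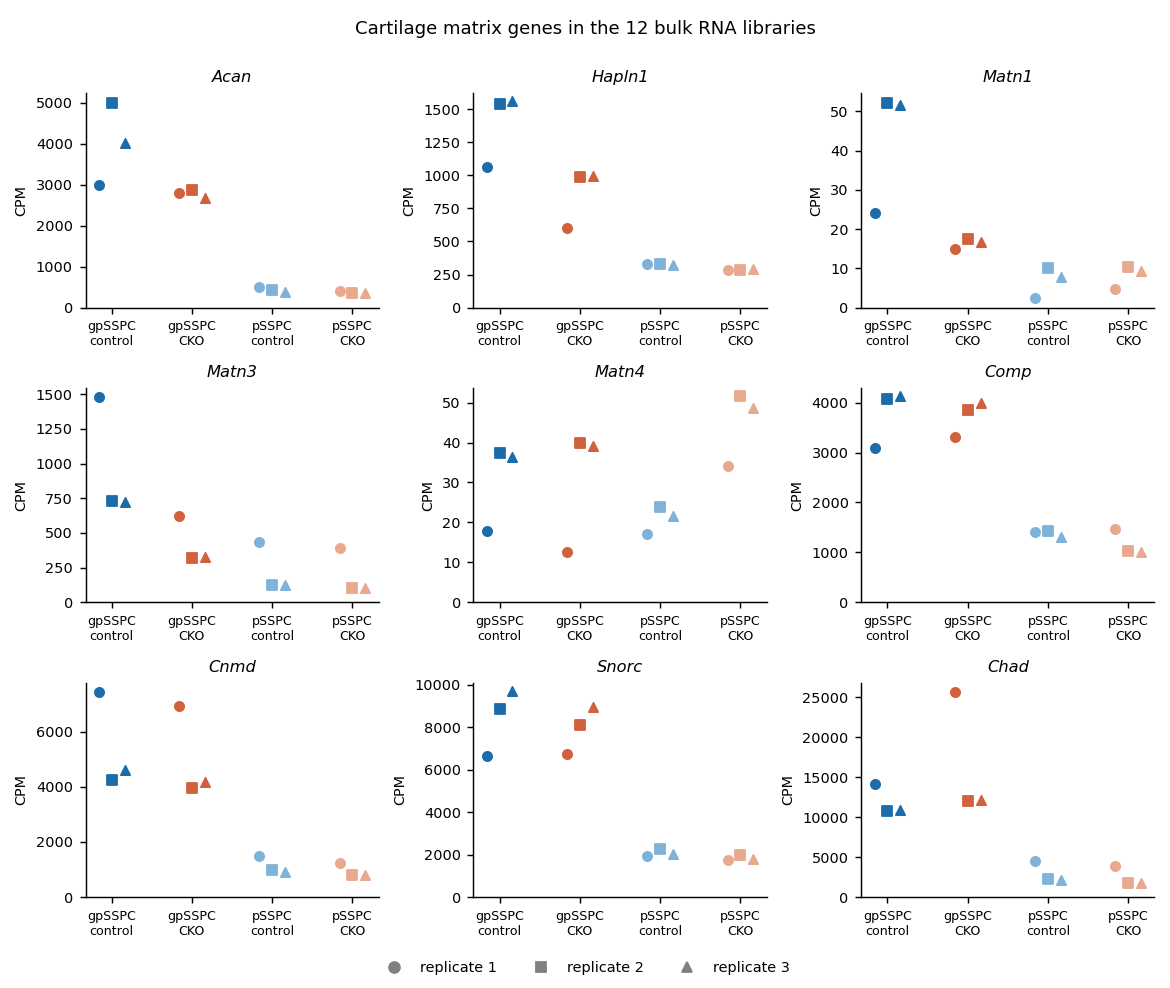
Level of each of the 9 genes (CPM, linear axis from 0) in the 12 bulk RNA libraries, by population and genotype; marker shapes give the replicate number. Acan, Hapln1, Matn1 and Matn3 show all 3 CKO gpSSPC libraries below all 3 control libraries, whereas Comp, Cnmd, Snorc and Chad interleave.

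Over all 9 members the median log2 fold change in gpSSPCs was -0.10, against 0.00217 over all genes tested. The 8 cartilage collagens, the fibrils and fibril-associated chains that the members bind, had a median of -1.03. All 8 were lower in all 3 CKO libraries, and with the replicate block 5 of the 8 fell (Col2a1, Col9a1, Col9a3, Col11a2 and Col10a1). Col10a1, the collagen of hypertrophic chondrocytes, changed by -1.72 on the log2 scale (SE 0.48; blocked edgeR adjusted p = 0.000526) and Col9a1 by -1.33 (SE 0.48; blocked edgeR adjusted p = 0.0011). Col2a1, the main cartilage collagen, was at 25294, 15459 and 15459 CPM in control gpSSPCs and 11364, 6425 and 6301 CPM in CKO gpSSPCs, a log2 fold change of -1.19 (SE 0.58; blocked edgeR adjusted p = 0.00169) close to that of Matn3. The 12 chondrocyte markers, all detected in each library, summed to 41897, 27893 and 28016 CPM in control and 21119, 13341 and 13191 CPM in CKO gpSSPCs. They hold no member but include all of these collagens except Col27a1, with Col2a1 the most abundant, so the sum mostly repeats the collagens. Markers among them that are not collagens overlapped between the groups: Ucma was at 1271, 501 and 507 CPM in control and 1016, 514 and 530 CPM in CKO gpSSPCs, and Mia at 245, 635 and 550 CPM against 349, 568 and 469 CPM. In bulk samples fewer cells of a type and less RNA per cell cannot be told apart. Markers of other cells also moved with genotype in these libraries: the 7 endothelial markers (5 to 7 detected, Plvap or Cdh5 the most abundant, Cldn5 and Emcn at 0 in replicate 1) summed to 43.7, 46.2 and 44.4 CPM in control and 118.8, 63.0 and 66.1 CPM in CKO gpSSPCs. Without Plvap the other 6 summed to 24.8, 29.9 and 27.8 CPM in control and 32.5, 38.0 and 36.7 CPM in CKO gpSSPCs. The 6 basophil and mast cell markers (Mcpt8 the most abundant where it was detected) summed to 29.9 and 21.9 CPM in control replicates 2 and 3 and 120.0 and 142 CPM in the CKO ones, and in replicate 1 Gata2 was the 1 marker with counts. The part of cell composition in the Matn3 difference was not tested.

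**Figure D2:**
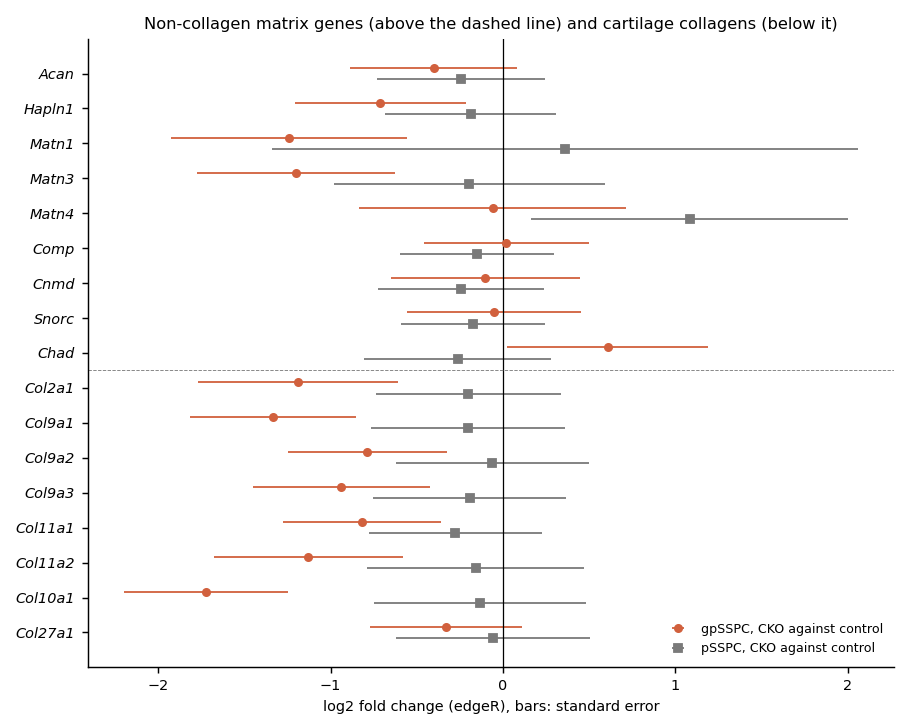
Log2 fold change of CKO against control with its SE (edgeR without the block, n = 2 samples per group) for the 9 genes and, below the dashed line, 8 cartilage collagens, in gpSSPCs (circles) and pSSPCs (squares). In gpSSPCs Matn1 and Matn3 sit near the collagens at about -1.2, and Comp, Cnmd, Snorc and Matn4 sit near 0.

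Other genes of cartilage matrix were read beside the collagens. Of 13 tested genes of other cartilage matrix, none was called with the block in edgeR, and 1, fibromodulin (Fmod), was lower in all 3 CKO libraries (log2 fold change -0.55, SE 0.47). Their median was 0.06, with Prg4 at 0.41 (SE 1.37) and Cytl1, a secreted chondrocyte factor, at 0.46 (SE 0.95). Among 9 tested paralogues of the members, Hapln3, Matn2 and Thbs3 were lower in all 3 CKO libraries and none was called; Thbs4 and Chadl, the paralogues with the highest means, had log2 fold changes of -0.19 (SE 0.46) and 0.07 (SE 0.46). Of 16 genes that build and sulfate glycosaminoglycan chains, Xylt1, which starts the chain, and Slc26a2, the sulfate transporter, were lower in all 3 CKO libraries, and Papss2, which makes the sulfate donor, was higher in all 3. Neither these, nor any of 12 genes of hyaluronan and aggrecan turnover, nor any of 14 chondrogenic regulators were called. Sox9, the regulator of Acan and Col2a1 in chondrocytes, had a log2 fold change of -0.13 (SE 0.50) and Pth1r, the parathyroid hormone receptor, -0.74 (SE 0.50; blocked edgeR adjusted p = 0.249). Without the block edgeR called 0 of the 12041 genes in either direction. A looser rule (a log2 fold change beyond 0.25 in either direction at p under 0.05, unadjusted), which the study's methods apply to DESeq2, was also read on this edgeR fit, where 20 genes (0.166%) were lower and 37 (0.307%) higher, the same counts as at an unadjusted p under 0.05 alone, with no member among them. DESeq2 called 0 lower and 1 higher after adjustment. At an unadjusted p under 0.05 it gave 41 (0.341%) lower, Matn3 the 1 member among them, and 65 (0.540%) higher. The blocked edgeR fit gave 208 (1.73%) lower at that unadjusted threshold, with Hapln1 and Matn3 among them, and 255 (2.12%) higher, with Chad among them.

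In pSSPCs no member was called between CKO and control. Hapln1 was lower in all 3 CKO libraries (327, 327 and 325 CPM in control; 286, 286 and 290 CPM in CKO; log2 fold change -0.19, SE 0.50), where 8.56% of 11878 genes were. Matn4 was the 1 member higher in all 3, where 9.21% of genes were, with 17.1, 23.8 and 21.6 CPM in control and 34.1, 51.7 and 48.7 CPM in CKO pSSPCs. Its log2 fold change of 1.08 (SE 0.92, n = 2 per group) did not pass (edgeR adjusted p = 1 with and without the block). The largest of the other changes was 0.36 (SE 1.70) for Matn1, which had 3 to 53 counts in these libraries.

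Matn3 in pSSPCs depended on the replicate: control libraries held 435, 128 and 123 CPM and CKO libraries 391, 102 and 100.4 CPM, and within a replicate number the values lay close. Its log2 fold change there was -0.20 (SE 0.79). The values of Acan were 491, 423 and 385 CPM in control and 405, 354 and 345 CPM in CKO pSSPCs, a difference of -0.25 on the log2 scale (SE 0.49). Comp (-0.15, SE 0.45), Cnmd (-0.24, SE 0.48), Snorc (-0.17, SE 0.42) and Chad (-0.26, SE 0.54) were also within their errors. The median over the 9 members was -0.19, and that of the 8 collagens -0.18. Without the block edgeR called 0 of 11878 genes (111, or 0.935%, lower and 31, or 0.261%, higher at an unadjusted p under 0.05 and by the looser rule, no member among them). DESeq2 also called 0, with 250 (2.10%) lower and 68 (0.572%) higher at an unadjusted p under 0.05, and the blocked edgeR fit had 376 (3.17%) and 246 (2.07%) at that threshold, again with no member. With the block 0.219% of genes were called lower and 0.101% higher, among them Prg4 (log2 fold change 1.71, SE 0.74) and the hyaluronan synthase Has1 (1.59, SE 0.63), both higher. Of the 9 periosteal markers, Prg4 was at 2261, 8464 and 8829 CPM in control and 7337, 25619 and 29882 CPM in CKO pSSPCs. The sum of the other 8 went the other way, at 30158, 25954 and 28847 CPM in control and 15557, 16679 and 17872 CPM in CKO pSSPCs, below control in all 3 libraries. Dcn was a large part of that sum in control pSSPCs, at 13508, 17750 and 20173 CPM, so it does not describe each marker. The part of these markers in the values of Matn4 was not tested.

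The difference between the CKO effects in gpSSPCs and pSSPCs was tested as an interaction term in 1 fit over all 4 groups. No member passed with or without the block, where 0% of 13173 genes were called lower and 0.0152% (2 genes) higher. Of the members, Matn3 had an interaction of -0.98 on the log2 scale (SE 1.07; blocked edgeR adjusted p = 0.938) and Chad of 0.89 (SE 0.76; blocked edgeR adjusted p = 0.711). That of Matn3 turned to 0.27 without CKO pSSPC replicate 1 and was -2.13 without control pSSPC replicate 1, and that of Chad was 0.22 without CKO gpSSPC replicate 1 and 0.27 without control pSSPC replicate 1. Those of Matn1 (-1.56, SE 1.34) and Matn4 (-1.13, SE 1.09) had errors nearly as large as their values. Without the block edgeR called 0 genes (43, or 0.326%, lower and 82, or 0.622%, higher at an unadjusted p under 0.05 and by the looser rule), and DESeq2 called 0 (59 lower and 157 higher unadjusted). A difference of the CKO effect on Matn3 between gpSSPCs and pSSPCs was therefore not shown.

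Between the populations nearly all members differed. In control mice 8 of the 9 were higher in all 3 gpSSPC libraries than in all 3 pSSPC libraries, where 14.0% of 13173 genes were. With the replicate block edgeR called 7 of the 9 higher and none lower, against 1.24% and 2.37% of all genes: Acan, Hapln1, Matn3, Comp, Cnmd, Snorc and Chad. Acan had the largest difference, a log2 fold change of 3.02 (SE 0.40; blocked edgeR adjusted p = 1.44e-10), from 385 to 491 CPM in pSSPCs to 2983 to 5005 CPM in gpSSPCs. It was followed by Matn1 (2.69, SE 1.00), Cnmd (2.27, SE 0.48), Hapln1 (1.97, SE 0.43), Snorc (1.96, SE 0.37), Matn3 (1.95, SE 0.78), Chad (1.87, SE 0.56) and Comp (1.36, SE 0.38), neighbours that do not differ beyond their errors. The order depends on replicate 1: Matn3 was at 1.46 without control gpSSPC replicate 1 and at 3.1 without control pSSPC replicate 1, Matn1 at 3.21 and 2.10, Cnmd at 1.96 and 2.62, and Chad at 1.77 and 2.49. Matn4 was the exception, at 0.45 (SE 0.77), with overlapping groups. Matn1 did not pass (blocked edgeR adjusted p = 0.117), and its pSSPC values rested on 3 to 39 counts.

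Without the block the same comparison called 0 genes in edgeR (528, or 4.01%, lower and 287, or 2.18%, higher at an unadjusted p under 0.05 and by the looser rule, 8 members among the higher), while DESeq2 called 172 lower and 79 higher, 5 members among the latter. Col2a1 and the other 7 collagens were all called higher with the block, as were 7 of 13 genes of other cartilage matrix (Ucma, Scrg1, Susd5 and Cytl1 with the smallest p) and 8 of 14 regulators (Pth1r, Sox9, Runx3 and Ihh with the smallest p). The glycosaminoglycan genes Slc26a2, Papss2, Chst11 and Xylt1 (4 of 16), Mmp13 and Timp3 (2 of 12 turnover genes) and the paralogue Chadl (1 of 9) also passed. In CKO mice 7 members were again called higher in gpSSPCs with the block, where 1.25% of genes were called higher and 1.11% lower, and their log2 fold changes were between 0.97 (Matn3, SE 0.76) and 2.88 (Acan, SE 0.40). Matn3 was at 0.46 without CKO gpSSPC replicate 1 and at 2.21 without CKO pSSPC replicate 1, and Chad, at 2.76 in the fit on all libraries, at 2.16 and 3.40. For the edgeR fit without the block the count there was 0 (258, or 1.96%, lower and 310, or 2.35%, higher at an unadjusted p under 0.05 and by the looser rule, 6 members among the higher; DESeq2 34 and 73). In this comparison 7 members were above in all 3 gpSSPC libraries, where 11% of genes were, and the groups overlapped for Matn3 and Matn4. Matn4 had the opposite sign, -0.68 (SE 0.77). These 2 comparisons share no library, but each shares its libraries with a CKO comparison above.

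Both sort markers were read in the same libraries. Nt5e, which encodes CD73, was at 249, 197 and 200.3 CPM in control and 139, 347 and 312 CPM in CKO gpSSPCs, above all pSSPC libraries. Ly6a, which encodes a Sca1 antigen, was at 304, 865 and 818 CPM in control gpSSPCs and at 1207, 2719 and 2827 CPM in control pSSPCs, so gpSSPC libraries were not free of it. Together the members took 3.65, 3.52 and 3.50% of counts in control gpSSPCs, 4.45, 3.13 and 3.12% in CKO gpSSPCs and 0.651 to 0.979% in pSSPCs. Over the 12 libraries the genes whose log2 level was most like the mean of the members, of 12651 ranked, were Col27a1 (Pearson r = 0.9934), Ccn6 (0.9926), Shisa4 (0.9878), Susd5 (0.9877) and Mef2c (0.9874). These correlations describe libraries that share population, replicate number and depth. Among the members themselves Acan and Snorc were the closest pair (r = 0.985), and Matn4 was the least like the rest, with r between -0.408 and 0.227.

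In single-cell RNA the same genes were read by cell class. Cells were clustered with the 9 members held out of the variable genes, and a cluster was called chondrocyte-like from collagen, Sox and matrix markers that include no member. After filtering, 993 PrxCre and 782 OsxCre cells remained at 8 weeks and 2068 control and 2362 CKO cells at 16 weeks, with 1040275 to 3609446 UMIs (unique molecules) per library. With 1 library per group there is no test, and the intervals below are exact 95% intervals for counting error only. CPM is here the sum of UMIs over the cells of a class, scaled to the total UMIs of that class in the library. Between 0 and 10 barcodes were shared by any 2 libraries, and no doublet caller was run. Zmpste24 was at 19.8 CPM (95% interval 14.9 to 26) in the marrow stromal (BMSC-like) cells of the 16-week library labelled control and at 3.03 CPM (1.39 to 5.75) in the one labelled CKO, although 3' reads lie outside the deleted exon.

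Nearly all molecules of the members came from chondrocyte-like cells: 93.8% of 21826 UMIs in the 8-week PrxCre library, 97.4% of 11965 in the OsxCre library, 93.5% of 10888 in the 16-week control and 91.7% of 3612 in the 16-week CKO library. These cells were few, 161 (16.2% of the library, 14.0 to 18.7%) and 74 (9.46%, 7.50 to 11.7%) at 8 weeks, and 60 (2.90%, 2.22 to 3.72%) in the control and 21 (0.889%, 0.551 to 1.36%) in the CKO library at 16 weeks. Both 16-week shares follow the sort and dissociation of 1 pool of mice each, so genotype and library cannot be told apart. With the members allowed among the variable genes, 122 control and 49 CKO cells were called chondrocyte-like, while OB-like (osteoblast) cells of both libraries fell from 454 to 363. The added cells held almost no Acan (508 and 219 UMIs in the larger class, against 506 and 217) or Matn3 (403 and 164, against 400 and 164). Comp rose from 1392 to 1544 UMIs in control and from 483 to 503 in CKO cells. The name therefore describes the added cells poorly. A chondrocyte-like cell had a UMI of a median of 7 of the 9 members in each of the 4 libraries, and 90.5 to 100% of such cells had at least 5. Of BMSC-like cells, 65.3 to 92.0% had none. Acan was detected in 90.5 to 100% of chondrocyte-like cells and in 0.145 to 2.74% of BMSC-like cells, and Matn3 in 71.4 to 93.8% and 0.0485 to 1.76%. Median depths were 3173.5 to 4433 UMIs in chondrocyte-like and 839 to 1395 in BMSC-like cells, so cells were also compared at 1000 UMIs each, without the shallower ones. Acan was then in 91.0% of 144 PrxCre and 82.1% of 67 OsxCre cells at 8 weeks and 79.6% of 54 control and 71.4% of 21 CKO cells at 16 weeks, and in 0.0786 to 2.70% of BMSC-like cells. Over 16 sums by class and library, the genes most like the members of 10713 ranked were Col9a1 (r = 0.9791), Sox9 (0.9705), Scrg1 (0.9656), Col2a1 (0.9574) and Col9a2 (0.9489), with class shared between points.

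**Figure D3:**
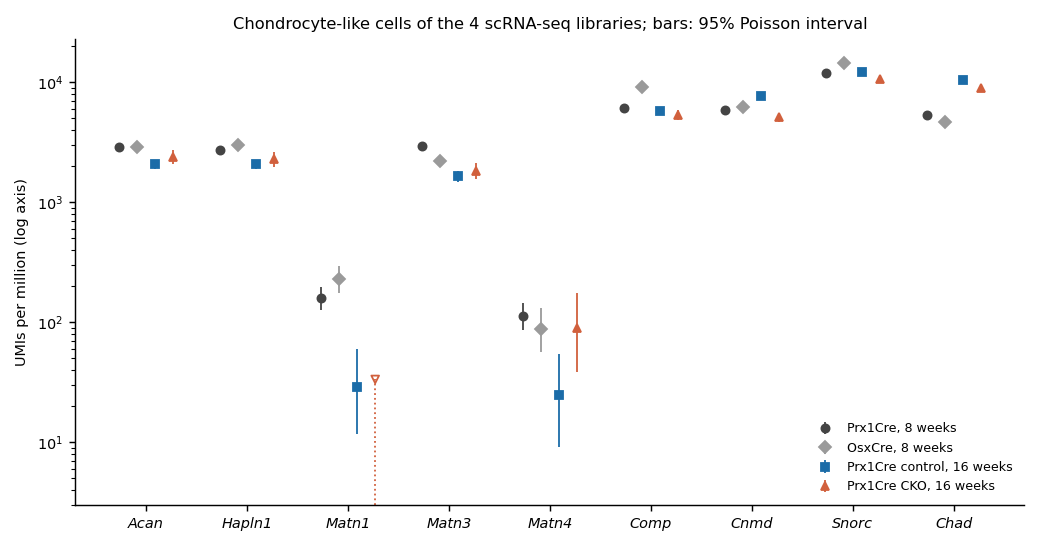
CPM (log axis) of each gene summed over chondrocyte-like cells in the 4 single-cell libraries, with exact 95% Poisson intervals; an open triangle is the level of 3 counts where no UMI was seen. Only Matn1 in the 16-week CKO library has no UMI, and of the 7 genes with at least 20 UMIs Cnmd has the most separated pair of 16-week points.

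Within chondrocyte-like cells at 16 weeks, none of the 7 members with at least 20 UMIs changed by 2-fold between CKO and control, where 6.78% of 2095 genes were at least 2-fold lower and 6.21% at least 2-fold higher. Matn3 had 164 UMIs in 21 CKO cells and 400 in 60 control cells, or 1821 CPM (1553 to 2121) against 1648 CPM (1490 to 1817). Their ratio was 1.10 (0.916 to 1.33), beside the fold of 0.435 in bulk gpSSPCs, which differ in age, sort and assay. The ratios of Acan (1.16, 0.981 to 1.36), Hapln1 (1.10, 0.931 to 1.3) and Col2a1 (1.02, 0.956 to 1.09) were also near 1.

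The lowest ratio among these members was that of Cnmd, 0.667 (0.601 to 0.739), from 7671 CPM (7326 to 8027) in control to 5118 CPM (4661 to 5607) in CKO cells. Chad (0.848, 0.783 to 0.919) and Snorc (0.886, 0.823 to 0.953) were below 1 by their counting intervals and Comp (0.935, 0.841 to 1.04) was not. At 1000 UMIs per cell the interval of Snorc reached past 1 (0.872, 0.738 to 1.03), and the ratio of Comp was 1.08 (0.861 to 1.35). In the larger class found with the members among the variable genes, the interval of Comp lay below 1 (0.891, 0.804 to 0.986). Matn1 had 7 UMIs in control and 0 of 90083 in CKO cells, where the floor of 3 counts is 33.3 CPM, a difference not detectable at this depth. Matn4 had 6 and 8 UMIs, a ratio of 3.59 (1.09 to 12.6). In the larger class it had 44 and 20 UMIs, most of them from the added cells, and the ratio was 1.24. The 21 CKO cells also held more marker RNA of other cell types: the 9 periosteal markers summed to 3430 CPM (5 detected, Dcn the highest, Igfbp6, Clec3b, Pi16 and Postn at 0) against 585 CPM in control cells (3 detected), with Prg4 at 116 UMIs against 1. The 7 osteoblast markers summed to 11700 against 8622 CPM, and the 7 marrow stromal markers, all detected in both, to 2842 against 1055 CPM. Their part in the ratios was not tested. Col10a1 had 0 UMIs in CKO and 83 in control cells.

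At 8 weeks the members were compared between the chondrocyte-like cells of the 2 Cre lines. None of the 9 members, all with at least 20 UMIs, differed by 2-fold, where 7.06% of 3940 genes were at least 2-fold lower in OsxCre and 2.94% at least 2-fold higher. Comp had the highest ratio of OsxCre to PrxCre, 1.49 (1.41 to 1.57), and Matn3 the lowest, 0.749 (0.680 to 0.823). Acan was at 2910 CPM (2710 to 3120) in OsxCre and 2888 CPM (2746 to 3036) in PrxCre cells. Matn1, at 0 and 28.8 CPM at 16 weeks, was at 229 CPM (175 to 293) and 159 CPM (127 to 196) at 8 weeks, in 25.7% of 74 and 24.8% of 161 cells, but age goes with library, so the 2 cannot be told apart.

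Outside chondrocyte-like cells, UMIs of the members were also seen in other classes. Comp was in 39.6% of the 164 periosteal (PMSC-like) cells of the 8-week PrxCre library (411 UMIs, 1829 CPM, 1656 to 2015) and Chad in 26.2% (394 UMIs, 1753 CPM, 1585 to 1935), while 9.17% and 6% of its BMSC-like cells had them, at median depths of 1123.5 UMIs in PMSC-like and 896 in BMSC-like cells. Snorc was in 22.6% of the PrxCre PMSC-like cells (132 UMIs, 587 CPM, 491 to 697) and 12.3% of BMSC-like cells (136 CPM). Acan was in 11% (138 CPM, 93.7 to 196) and 1.76% (18.7 CPM), Hapln1 in 9.15% (111 CPM, 72 to 164) and 1.41% (14.9 CPM), and Matn4 in 5.49% (75.7 CPM, 44.1 to 121) and 0.529% (7.47 CPM) of the same classes. The other 3 members did not stand above the BMSC-like cells beyond their counting intervals: Cnmd was at 71.2 CPM in PMSC-like and 95.3 CPM in BMSC-like cells, and Matn1 and Matn3 had 1 and 2 UMIs in PMSC-like cells. The same cluster held 75 OsxCre cells whose markers go against its name, with 16520 CPM of osteoblast and 7665 CPM of periosteal markers (Clec3b and Pi16 at 0) and no UMI of Ly6a, which 42.7% of the PrxCre cells had. In the PrxCre cells these sums were 9190 and 35470 CPM. At a finer clustering resolution of 0.5, 126 PrxCre and 10 OsxCre cells were called PMSC-like, and 38 and 65 fell in a cluster led by Mmp13 that was not named. Comp was then in 46.8% of the 126 PrxCre PMSC-like cells (2307 CPM, 2087 to 2543) and Chad in 29.4% (2215 CPM, 2000 to 2447), against 15.8% for each in the 38 PrxCre cells of the unnamed cluster. Snorc was in 21.4% (674 CPM, 558 to 807) and 26.3% (282 CPM, 154 to 474), so its order by share and by level differed. The 2 Cre lines are therefore not compared in this class. Matn4 was in 4.44% of the 248 osteoblast (OB-like) cells of the 16-week control library (68.1 CPM, 48.2 to 93.4) and 2.91% of 206 in the CKO library (45.2 CPM, 24.7 to 75.8). In chondrocyte-like cells it was in 10% of 60 (24.7 CPM, 9.07 to 53.8) and 19% of 21 (88.8 CPM, 38.3 to 175), so cell shares were higher there in both libraries while the CPM order differed between the libraries. The OB-like cluster also held periosteal markers (all 9 detected, summed to 13870 CPM in control and 6707 CPM in CKO), and no PMSC-like class was named at 16 weeks. At resolution 0.5, 363 cells were OB-like and 91 formed a PMSC-like cluster led by Prg4, Igfbp6, Clec3b and Ly6a. At 8 weeks Matn4 was in 1.37% of 73 PrxCre and 0% of 63 OsxCre OB-like cells. Matn4 in the 16-week cluster can therefore not be assigned to osteoblasts.

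Chromatin was compared by the peaks that lie in each gene or within 10 kb of it. ATAC libraries of 3000 to 5000 cells held 12250713 to 46756821 tags after filtering and 59209 to 101606 peaks, called in each library alone. All 9 members had a peak in each of the 6 gpSSPC libraries. Control gpSSPCs had 74, 71 and 71 peaks at the members and control pSSPCs 18, 15 and 24, without overlap (72.0 ± 1.73 against 19 ± 4.58, SD, n = 3; exact two-sided permutation p = 0.1, the smallest that 3 against 3 allows). Per 10000 peaks of the library this was 7.51, 7.63 and 8.06 against 2.83, 2.53 and 3.01. For 7 of the 9 members all 3 gpSSPC libraries had more peaks, where 29.2% of 18190 genes did (3.63% had fewer in all 3), and Matn4 and Chad were the exceptions. Acan had 14, 17 and 15 peaks in control gpSSPCs and 1, 2 and 2 in control pSSPCs. Hapln1 had 13, 13 and 14 against 1, 1 and 2, Matn1 had 6 in each against 0, 0 and 1, and Matn3 had 8 in each against 4 in each.

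**Figure D4:**
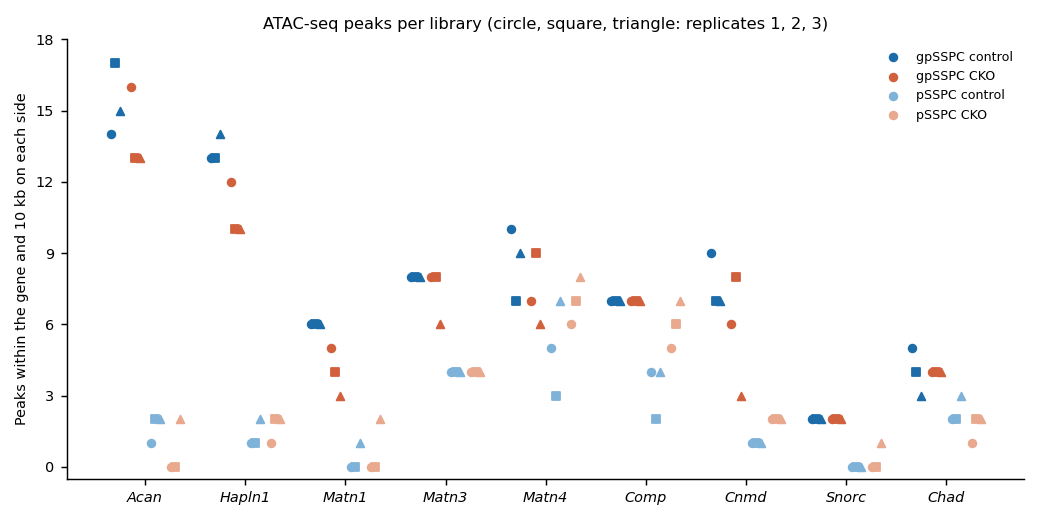
Number of peaks within each gene and 10 kb on each side in the 12 ATAC libraries, by population and genotype; marker shapes give the replicate number. Acan and Hapln1 have 10 to 17 peaks in every gpSSPC library and 0 to 2 in every pSSPC library, and control and CKO points overlap or lie close.

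In CKO gpSSPCs the members had 67, 65 and 54 peaks, all below the 3 control values (62.0 ± 7 against 72.0 ± 1.73, SD, n = 3; exact two-sided permutation p = 0.1). These libraries had fewer peaks in all, 84100, 76856 and 68961 against 98549, 93028 and 88095, and per 10000 peaks the members had 7.97, 8.46 and 7.83, which overlaps the control range. When each library was cut to its 59209 strongest peaks the difference in the mean turned from -10.0 to 5.0 (exact permutation p = 0.3). By gene, Hapln1 (12, 10 and 10 peaks) and Matn1 (5, 4 and 3) were below control in all 3 libraries, where 6.90% of 18038 genes were, and no member was above, where 0.177% were. Matn3 kept 8, 8 and 6 of its 8 peaks and Acan had 16, 13 and 13. Comp had 7 peaks and Snorc 2 in every gpSSPC library. In pSSPCs the members had 18, 15 and 24 peaks in control and 19, 23 and 30 in CKO libraries (exact permutation p = 0.4), and Comp and Cnmd were above control in all 3, where 6.47% of 17723 genes were, and none was below, where 0.181% were. The CKO pSSPC libraries had 72375, 84042 and 101606 peaks in all against 63516, 59209 and 79724 in control, and per 10000 peaks the members had 2.63, 2.74 and 2.95 against 2.83, 2.53 and 3.01, which overlap.

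Merged over the libraries, the peaks formed 94 regions. Of these 10 were present in all 12 libraries, 37 in all 3 control gpSSPC and no control pSSPC libraries, and none the other way round. Of 176624 regions merged in the same way over the genome, 14.3%, 13.5% and 4.87% were so placed. Acan had 11 of the 37, among them a region of the start site (chr7:79052579-79053571, strongest point at -198 from the start) and one at -9598 that reached 8.66-fold over background. Matn3 held 4 regions open in all 12 libraries, including its promoter (chr12:8947566-8948396, strongest point at -49 from the start, up to 13.2-fold), and 4 open only in gpSSPCs, the highest in an intron 6420 bases after the start (11.7-fold). The promoter whose GC-rich matches are printed above was thus open in pSSPCs, where Matn3 RNA was lower. The window of Hapln1 was also open in both populations (3 control and 3 CKO gpSSPC, 2 control and 3 CKO pSSPC libraries). Snorc had no region in control pSSPCs.

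Between genotypes, 1 of the 94 regions was present in all 3 control and no CKO gpSSPC libraries, a region 15948 bases after the start of Matn1, downstream of the gene (chr4:130960104-130960611, up to 5.88-fold). None was present in all 3 CKO and no control gpSSPC libraries. Over the genome 0.978% of regions had the first of these patterns and 0.0340% the other, so 1 of 94 is near the background. Matn1 had no peak within 1 kb of its start in any library, and its nearest was at -1577 from it, in all 6 gpSSPC libraries. In pSSPCs, 2 regions were in all 3 CKO and no control libraries: one in the first intron of Cnmd, 868 bases after its start (chr14:79661060-79661897), and one 16307 bases after the start of Comp, within the neighbouring gene Crtc1 (chr8:70389651-70390100). None went the other way. Over the genome 1.83% of regions were in all 3 CKO and no control pSSPC libraries and 0.0776% the reverse, so 2 of 94 is also near the background. By this count (3 libraries against 0) no region of Acan, Hapln1 or Matn3 differed between genotypes in either population.

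**Figure D5:**
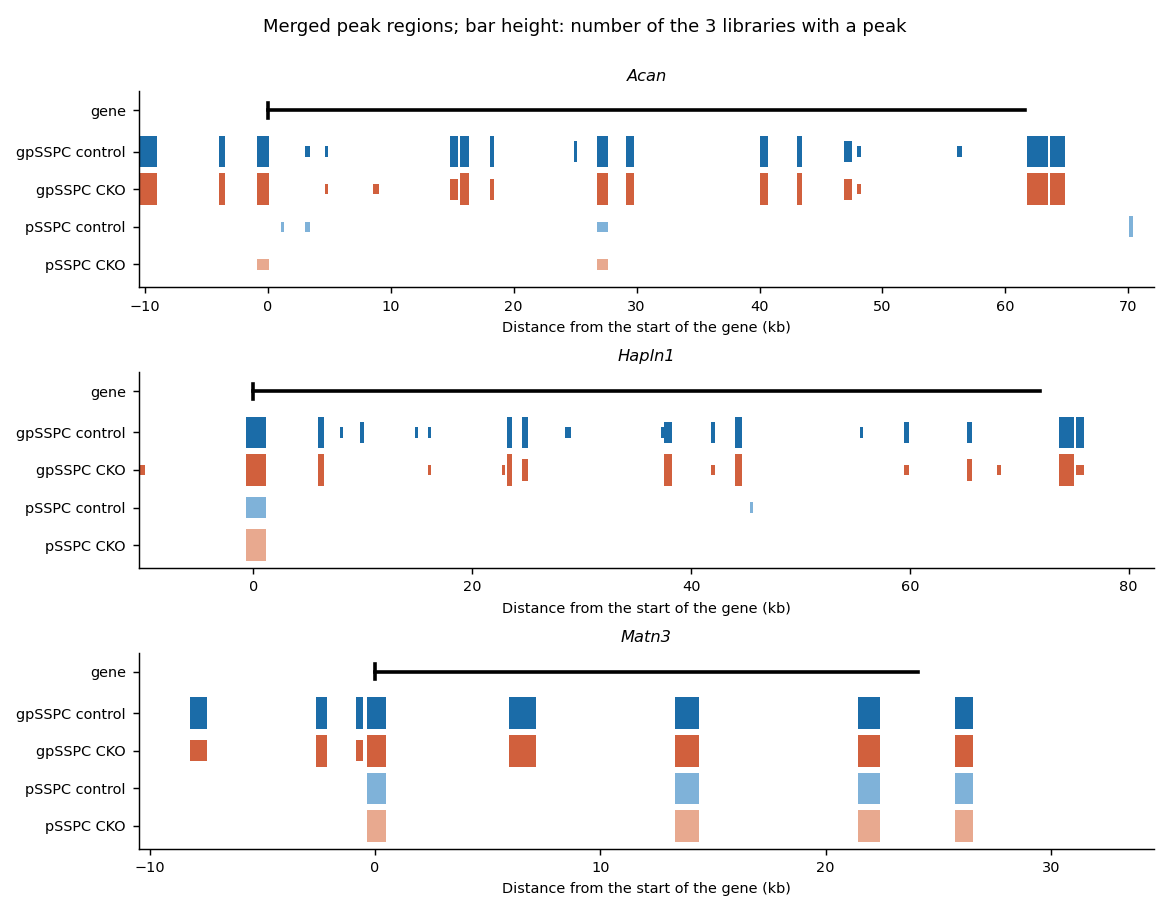
Merged peak regions along Acan, Hapln1 and Matn3, by distance from the start site in kb; bar height is the number of the 3 libraries of a group with a peak, and the black line is the gene. Most regions of Acan and Hapln1 are in gpSSPCs alone, and Matn3 has 4 regions in all 12 libraries.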

How the data were processed

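Bulk RNA values are raw counts per gene that the authors deposited for each library, made with STAR on mm10 and HTSeq after duplicates were removed by UMI; the submitters' processing notes also name DESeq2, HOMER and bedtools. The single-cell counts are deposited Cell Ranger UMI counts on mm10. ATAC peak lists were deposited per library: per the file headers, MACS 2.2.7.1 called peaks at a q-value of 0.05 without a control library, extending shifted tags, and the authors' files give the -log10 p and q, the fold enrichment over local background and the pileup signal at each summit, none scaled between libraries. All coordinates are mm10 (GRCm38).

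The 9 members and every gene list were chosen with earlier results of these data known, so no list was tested as a set; 1 marker list is not reported here. Named genes were all members and, per list and comparison, up to 4 with the smallest p among those called, or the 2 with the highest mean CPM where none was; other genes were added after their values were seen. Counts were tested in edgeR 4.0.16 (R 4.3.3) by the quasi-likelihood test with TMM, filterByExpr and Benjamini-Hochberg adjustment over all genes tested, with 0.05 as the threshold. Replicates 2 and 3 of each group were summed (chi-square over genes with 5 to 99 counts). Same-numbered control and CKO libraries deviated together (correlations of 0.532 to 0.586 over 10408 genes), so the replicate block was fitted as well; replicate numbers are from the labels. On simulated data for gpSSPC CKO against control (12041 genes), 0% of 183 genes changed by 2-fold and 0% of 182 changed by 4-fold were called without the block, and 4.92% and 40.7% with it.

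Single cells with at least 200 genes, and genes in at least 3 cells, were kept and clustered in Seurat 5.3.0 (2000 variable features, 20 principal components at 8 weeks and 22 at 16 weeks, resolution 0.14 and 0.15). Intervals are exact at the 95% level, and the floor is 3 counts. The library labelled control kept 2068 cells and that labelled CKO 2362; the study's methods give the larger of its 2 cell numbers to the Z24fl/+ mice, so the labels and the methods differ on which library is which, and the labels were followed; Zmpste24 was lower in the library labelled CKO, although its 3' reads lie outside the deleted exon. A peak belonged to a gene when it overlapped the gene or the 10 kb on either side by at least 1 base. Peak numbers were compared by exact two-sided permutation tests in scipy 1.17.1, with 0.1 the smallest p for 3 libraries against 3. Motif letters were searched in RefSeq promoters on both strands.

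Alternatives were RLE scaling, DESeq2 1.42.0, no filter on low counts, each library as a sample, the block, 1 fit over all groups, each library left out, members among the variable features, resolution 0.5, thinning to 1000 UMIs, a -log10 q of at least 5, the gene body alone, peaks lying mostly inside the window, and 59209 peaks per library.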

Additional observations from a re-analysis of the deposited data

How the results depend on the processing

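No setting run turned the sign of Acan, Hapln1, Matn1 or Matn3 in gpSSPCs. Leaving out 1 library at a time gave log2 fold changes of -0.67 to -0.32 for Acan, -0.95 to -0.39 for Hapln1, -1.68 to -1.15 for Matn1 and -1.75 to -0.60 for Matn3. The other members changed sign, between -0.47 and 0.53 for Matn4, -0.17 and 0.14 for Comp, -0.53 and 0.32 for Cnmd, -0.27 and 0.11 for Snorc and from -0.036 to 0.81 for Chad; the extremes opposite in sign to the fit on all libraries came without replicate 1 of CKO (Matn4, Snorc, Chad) or of control (Comp, Cnmd). With each library as a sample Matn4 was 0.0072 and Comp -0.0072, and without replicate 1 of both groups Matn4 was 0.11 and Comp -0.05. In pSSPCs the ranges were -0.24 to 0.79 for Matn1, -1.44 to 0.98 for Matn3, -0.57 to 0.13 for Cnmd and -0.91 to 0.38 for Chad, and the sign turned without control replicate 1. The interaction ranged from -0.29 to 0.50 for Cnmd, where it was -0.18 without control pSSPC replicate 1, from -0.074 to 0.47 for Comp, -0.15 to 0.28 for Snorc and -2.13 to 0.27 for Matn3.

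Genes called in gpSSPC CKO against control numbered 0 lower and 1 higher with DESeq2, 2 and 1 without a filter on low counts, and 7 and 5 with the replicate block, which called 1 member lower; leaving out 1 library gave 0 to 3 lower and 0 to 1 higher, the highest without CKO replicate 1. In pSSPCs they numbered 4 and 1 without the filter and 26 and 12 with the block, and 0 to 1 lower with 1 library left out. In control gpSSPCs against pSSPCs, lower genes, higher genes and members numbered 172, 79 and 5 with DESeq2, 50, 39 and 6 without the filter, 300, 259 and 7 with each library as a sample, and 312, 164 and 7 with the replicate block. In CKO mice they numbered 34, 73 and 6, then 10, 46 and 4, then 145, 220 and 6, then 146, 165 and 7. The interaction had 2 genes higher without the filter and 2 with the block. In the CKO comparisons and the interaction, the pairing by replicate number changed no call on a member but that of Matn3 in gpSSPCs. Between the populations edgeR called 0 members without the block and 7 with it, in control and in CKO mice alike.

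With the members among the variable features, chondrocyte-like cells at 16 weeks numbered 49 in CKO and 122 in control, but the added cells held almost no Acan or Matn3. For peaks at the members, the same number of strongest peaks per library turned the gpSSPC CKO difference from -10.0 to 5.0 (exact permutation p = 0.3), and gave 24 between the populations, where a -log10 q of at least 5 gave 45.3 and the gene body alone 30.3. Leaving out 1 library gave -12.5 to -6.0, 2.0 to 7.5 in pSSPCs and 51.0 to 55.5 between populations. Where a value moved, the cause was not tested. Matn1 and Matn4 rested on low counts in bulk and single cells, and the CKO chondrocyte-like cells at 16 weeks numbered only 21.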

Other observations

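In the 16-week libraries, the share of BMSC-like cells with a UMI of Chad was 6.81% in control and 2.86% in CKO, that of Comp 3.61% and 2.86%, that of Cnmd 2.49% and 1.41%, and that of Snorc 1.95% and 0.485%. Acan and Hapln1 were each in 0.533% and 0.145%, Matn3 in 0.355% and 0.0485%, and Matn4 in 0.296% and 0.339%, all from 1 to 9 cells, and Matn1 in none of 1688 and 2063 cells, where the floor of 3 counts is 1.12 and 1.01 CPM. By summed level Comp did not differ beyond its counting intervals, at 27.7 CPM for control (21.8 to 34.8) and 28.9 for CKO (23.1 to 35.7). Median depths were 1395 and 1258 UMIs. In single libraries these shares carry no test and chondrocyte-like cells made up 2.90% and 0.889% of cells; the part of that difference was not tested.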
